A study of Homo sapiens with 24 samples.

Results

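The genes described here are 41 genes of glycolysis and of the hypoxia response, taken by symbol from the 60671 genes of the count tables. They hold 2 glucose transporters, 9 enzymes of upper glycolysis, 6 of lower glycolysis, 4 genes of lactate formation and transport, 5 regulators of the pathway, the oxygen-responsive factor HIF1A with 2 of its sensors, and 12 other targets of that factor. All 41 symbols were matched. RNA-seq read counts were available for 24 libraries in 8 groups of 3, from H1 and H9, which are established human embryonic stem cell lines. Primed H1 cells were studied with knockdown of CARHSP1, an RNA-binding cold shock domain protein. Naive H1 cells were studied with knockdown of ZNF8, a zinc finger protein. H1 cells at day 2 of ectoderm differentiation were studied with knockdown of ZIC2, a zinc finger transcription factor of early neural tissue. Each knockdown had its own nontargeting control group in the same state, and all 18 H1 libraries, controls included, were treated with doxycycline. The 6 H9 libraries were primed or naive cells, for which the labels give no genotype or treatment. The labels say neither how the knockdowns were made nor whether libraries of a group came from separate cultures or clones, so p-values measure the spread between these libraries, which may be technical.

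Glycolysis turns glucose into pyruvate, and lactate dehydrogenase turns pyruvate into lactate, which leaves the cell through monocarboxylate transporters. HIF1A is the subunit of hypoxia-inducible factor that prolyl hydroxylases such as EGLN1 and EGLN3 mark for breakdown when oxygen is present. When it is stable, it binds a short core sequence near its target genes, which include most glycolytic enzymes, the glucose transporter SLC2A1 and the mitophagy receptor BNIP3. Human pluripotent stem cells are known for a strongly glycolytic metabolism.

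Libraries held 6756704 to 20773963 counts and 20732 to 25392 detected genes, and between 1.68% and 7.54% of counts came from mitochondrial genes. CARHSP1 stood at 152, 148 and 148 CPM (counts scaled to library size, with the TMM method between libraries) in the primed controls and at 20.8, 18.1 and 18.4 in its knockdown, 7.81-fold lower (edgeR adjusted p = 8.36e-29). ZIC2 stood at 617, 548 and 495 CPM in the ectoderm controls and at 262, 263 and 272 in its knockdown, 2.08-fold lower (adjusted p = 1.18e-10). ZNF8 stood at 23.2, 18.6 and 17.7 CPM in the naive controls and at 15.3, 15.4 and 17.7 in the libraries labelled ZNF8 knockdown, a log2 change of −0.32 that missed the threshold of 0.05 on the adjusted p (0.0664). A direction given for the ZNF8 knockdown therefore rests on its label. Of 12 markers of naive cells, 12 were higher in naive than in primed H1 cells, and 10 of 10 tested were higher in naive than in primed H9 cells. KLF17, a defining marker of the naive state, was at 0 in primed cells of both lines, at 10.7 ± 1.12 CPM (SD, n = 3) in naive H1 controls and at 0.0693 ± 0.0606 CPM in naive H9 cells. Of 12 neural ectoderm markers, 7 could be tested in the ectoderm controls against primed cells and 6 were higher, while RAX and NR2F1 were at 0 in those controls. In bulk RNA, fewer cells of a type and less RNA per cell cannot be told apart.

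The 41 genes together held 1.46% ± 0.0306 of counts in primed H1 controls (SD, n = 3 in each group, taken over rounded shares). After CARHSP1 knockdown they held a mean of 1.17%. The 3 libraries were at 1.18%, 1.17% and 1.17%, a spread no larger than the rounding. In the other groups, too, the SD holds some rounding. The 41 genes held 1.25% ± 0.0173 in naive H1 controls and 0.95% ± 0.01 in the libraries labelled ZNF8 knockdown. In ectoderm the shares were 1.24% ± 0.0208 in controls and 1.22% ± 0.0115 after ZIC2 knockdown. H9 cells gave 1.47% ± 0.0208 when primed and 2% ± 0.0153 when naive. The libraries of CARHSP1 and ZNF8 knockdown lay wholly below their controls, and naive H9 libraries lay wholly above primed H9 libraries. The share is dominated by a few abundant transcripts, so the genes are taken singly below.

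**Figure D1:**
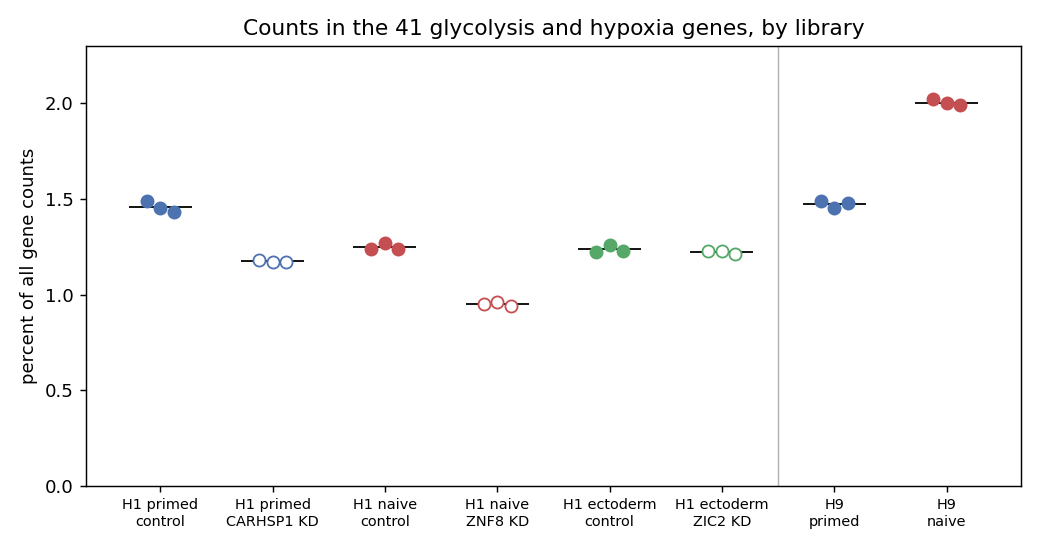
Share of all counts, in percent, that came from the 41 genes in each of the 24 libraries, by group. Points are libraries and bars are group means. Libraries with CARHSP1 or ZNF8 knockdown lie below their controls, both ectoderm groups lie near 1.2%, and naive H9 libraries lie near 2%.

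In primed H1 controls, levels per kilobase of gene length ran from 1260 ± 45.8 CPM per kb for GAPDH, the dehydrogenase of lower glycolysis, and 398 ± 13.9 for the enolase ENO1, down to under 1 for CA9, EGLN1, ANKRD37 and ANGPTL4. The count of EGLN1 is unusually low for a reason that was not tested, so its level is uncertain. LDHA, the muscle-type lactate dehydrogenase, stood at 163 ± 5.19 and PGK1, the first ATP-forming kinase of the pathway, at 150 ± 2.31. SLC2A3, the neuronal glucose transporter, stood at 134 ± 3.1 and the lactate transporter SLC16A1 at 130 ± 3.12 CPM per kb, and the libraries of this last pair overlapped. Levels of GAPDH, BNIP3, TPI1, LDHB and LDHA are uncertain to the extent that reads can be shared with processed pseudogenes. Those copies held up to 11.4% of the counts of BNIP3 and 7.81% of those of TPI1. SLC2A3 has a near-identical copy, SLC2A14, that can take part of its reads.

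After CARHSP1 knockdown, 30 of 39 tested members were lower and 1 was higher, against 9.87% lower and 10.3% higher of all 15642 genes tested. The median log2 change was −0.37 over members and 0 over all genes. All 6 enzymes of lower glycolysis, 8 of 9 of upper glycolysis, both glucose transporters, 4 of 5 regulators and 7 of 10 tested HIF targets were lower. The lower calls were 29 or 30 when any 1 library was left out. Over all genes the calls fell from 3152 to 2045 without control library 1 and to 2096 without knockdown library 2.

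The largest fall after CARHSP1 knockdown was in SLC16A3, the lactate exporter of strongly glycolytic cells (ENSG00000141526, chr17:82228397-82261129, plus strand, GRCh38). It stood at 31.6, 26.2 and 31.9 CPM in controls and at 7.12, 6.25 and 7.02 after knockdown, 4.4-fold lower (adjusted p = 8.07e-16). The other lactate transporter, SLC16A1, which carries lactate in either direction, stood at 652, 684 and 673 CPM in controls and at 630, 665 and 682 after knockdown, overlapping groups with a log2 change of −0.02 ± 0.04 (SE). PFKFB4, which makes the allosteric activator of phosphofructokinase, fell 3.75-fold from a mean of 37.6 to 10 CPM, and EGLN1, the main oxygen sensor, fell 2.82-fold on only 13 to 41 counts per library. Several named genes overlap others on the opposite strand, and how counting treated strand is not given. For SLC16A3 that gene is CSNK1D, whose counts were much higher and whose log2 change was 0.01 here and −0.03 in the ZNF8 knockdown.

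Changes in the abundant enzymes after CARHSP1 knockdown were smaller. GAPDH stood at 3140, 3000 and 2920 CPM in controls and at 2610, 2580 and 2570 after knockdown, 1.17-fold lower (adjusted p = 1.49e-05). The pyruvate kinase PKM fell 1.2-fold, ENO1 1.18-fold, the triose isomerase TPI1 1.18-fold and the mutase PGAM1 1.21-fold, each with no overlap between groups. PGK1 fell further, from 831, 818 and 806 CPM to 478, 521 and 504, 1.63-fold (adjusted p = 2.44e-16). LDHA went from 993, 948 and 1010 CPM to 627, 646 and 657, 1.53-fold lower (adjusted p = 5.78e-15). In both genes the knockdown libraries lay far below the lowest control. PFKM, the muscle phosphofructokinase, was at a log2 change of −0.01 ± 0.06, while the liver type PFKL and the platelet type PFKP were lower by 0.38 and 0.24 on the log2 scale. The calls of PFKL and PFKP were lost when trends with GC content and length were removed (adjusted p = 0.0665 and 0.1), and that of PFKP also without knockdown library 2 or control library 1 (0.0634 and 0.0705).

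Among HIF targets in the same comparison, KDM3A, a histone demethylase, stood at 70.2, 81.4 and 71.3 CPM in controls and at 39.1, 41.6 and 44.7 after knockdown, 1.76-fold lower. The collagen prolyl hydroxylases P4HA1 and P4HA2 fell 1.44-fold and 1.6-fold, and NDRG1, a stress-response gene, fell 1.74-fold. BNIP3L, a relative of BNIP3, fell 1.42-fold. ADM, which encodes the vessel-dilating peptide adrenomedullin, was the 1 member that rose, from 29.1, 23.4 and 29.9 CPM to 38.4, 37 and 34.7 (1.32-fold, adjusted p = 0.00312). That call was lost when all H1 groups were fitted together (adjusted p = 0.0551). HIF1A itself stood at 344, 324 and 337 CPM in controls and at 338, 336 and 357 after knockdown, a log2 change of 0.04 ± 0.05 with overlapping groups. CA9, a carbonic anhydrase that is a classical hypoxia marker, had 10, 5 and 11 counts in controls and 3, 4 and 1 after knockdown, too few to be tested.

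The CARHSP1 knockdown also moved measures outside the list. Across all genes the change correlated with gene GC content (Spearman rho −0.33 across 15576 genes, which are not independent replicates). The median GC content was 52.1% over members and 48.1% over all genes. Naive markers were lower in 6 of 7 tested, at a summed level of 44.4 to 56.4 CPM in controls and 32 to 35.3 after knockdown, with KLF17 at 0 in both groups. Core pluripotency markers were lower in 4 and higher in 1 of 8 tested, and primed markers lower in 4 and higher in 3 of 10. Fibroblast markers were lower in 3 of 6 tested, with LUM at 0 in both groups. Neural ectoderm, trophoblast and amnion, endoderm and mesoderm markers had no call. The mitochondrial share was 5.95% in controls and 6.13% after knockdown. With GC and length trends removed, 30 members were called lower, at a median of −0.29. PFKL and PFKP had then lost the call, while EGLN3 (log2 change −0.26, adjusted p = 0.0447) and MXI1 (−0.29, 0.0421) had gained one. The part of the marker changes in the members' changes was not tested.

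**Figure D2:**
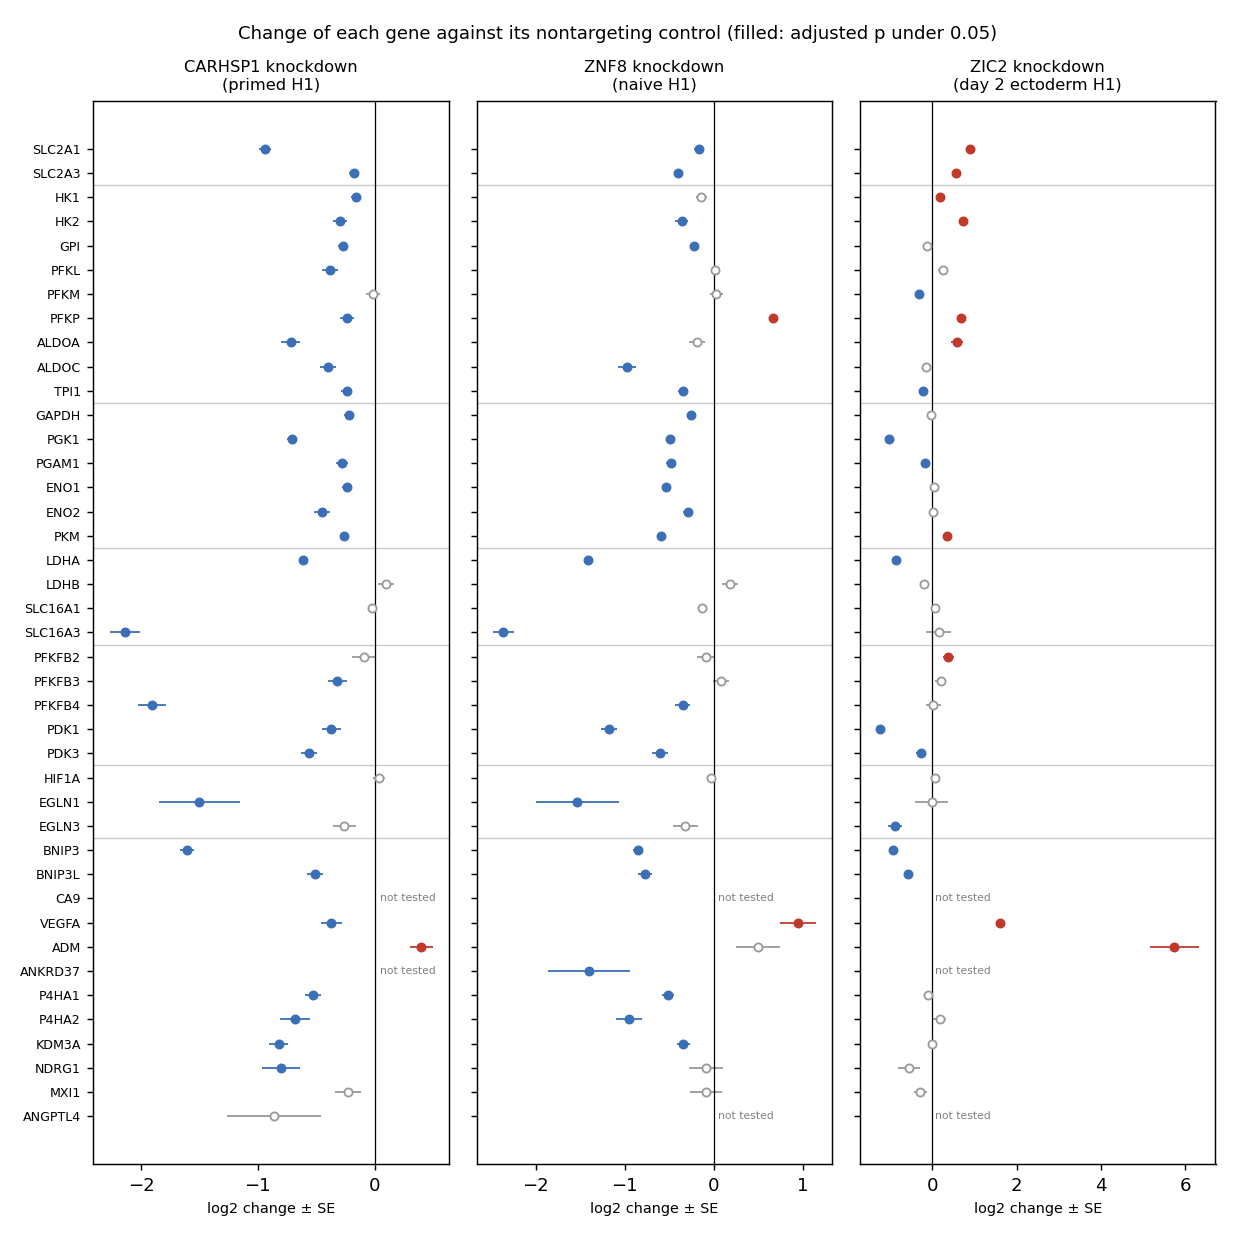
Log2 change of each tested member against its own nontargeting control in the CARHSP1, ZNF8 and ZIC2 knockdowns, ordered by role; points are edgeR estimates and lines are standard errors, with filled points passing an adjusted p of 0.05. Most points lie below 0 in the first 2 knockdowns, while in the ZIC2 knockdown 10 members are higher and 10 lower.

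In the libraries labelled ZNF8 knockdown, 24 of 39 tested members were lower and 2 higher, against 12.3% lower and 11.9% higher of all 15323 genes tested. The median log2 change was −0.34 over members and −0.01 over all genes. All 6 enzymes of lower glycolysis and both glucose transporters were again lower, as were 4 of 9 of upper glycolysis, 3 of 5 regulators and 6 of 10 tested HIF targets. The lower calls were 23 to 25 when 1 library was left out.

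SLC16A3 again had the largest fall, from 37.5, 44.1 and 46.3 CPM in naive controls to 8.61, 9.24 and 7.07 (5.13-fold, adjusted p = 2.32e-18). PDK1, a kinase that closes pyruvate's entry to the mitochondrial cycle, stood at 56.6, 56.5 and 52.2 CPM in controls and at 26.1, 22.4 and 24.8 in the knockdown, 2.26-fold lower (adjusted p = 3.76e-13). Its relative PDK3 fell 1.52-fold. LDHA fell 2.65-fold, and the aldolase ALDOC fell 1.97-fold from a mean of 51.9 to 26.4 CPM. In each of these 5 genes the highest knockdown library lay below the lowest control. EGLN1 and ANKRD37, a small ankyrin-repeat HIF target, were called lower on 3 to 26 counts per library. Both calls were lost without knockdown library 2 (adjusted p = 0.0819 and 0.156), that of EGLN1 also without knockdown library 3 or control library 3, and that of ANKRD37 also without control library 1 and when all H1 groups were fitted together (0.0746).

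Of the abundant enzymes in naive cells, PKM went from 1120, 1200 and 1150 CPM to 761, 784 and 774, 1.51-fold lower (adjusted p = 1.29e-13). ENO1 fell 1.46-fold, PGK1 1.41-fold, PGAM1 1.39-fold, TPI1 1.27-fold and GAPDH 1.19-fold. The 2 members that were higher were PFKP and VEGFA. PFKP stood at 220, 237 and 250 CPM in controls and at 374, 398 and 359 in the knockdown, 1.59-fold higher (adjusted p = 7.8e-13). VEGFA, the main growth factor of blood vessels, stood at 4.07, 5.21 and 4.79 CPM in controls and at 9.78, 9.4 and 8.19, 1.94-fold higher (adjusted p = 3e-04). In both genes the groups were well apart. PFKL, which was 1.3-fold lower after CARHSP1 knockdown, had a log2 change of 0.02 ± 0.05 here, and HIF1A one of −0.03 ± 0.05.

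Naive markers were lower in 10 of 12 in the ZNF8 knockdown, at a summed level of 851 to 879 CPM in controls and 492 to 502 in the knockdown, and KLF17 went from 10.7 to 1.49 CPM. Trophoblast and amnion markers were lower in 7 of 8 tested (sums of 106 to 113 and 37.9 to 42.7 CPM). Fibroblast markers were higher in 4 of 4 tested (306 to 316 and 397 to 431 CPM), with COL3A1, DCN and LUM at 0 in the knockdown. The mitochondrial share was 5.86% in controls and 6.88% in the knockdown. Their part in the members' changes was not tested.

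After ZIC2 knockdown the members split: of 38 tested, 10 were higher and 10 lower, against 15.3% higher and 12.8% lower of all 15013 genes tested, and the median log2 change was 0. Both glucose transporters and 4 of 9 upper enzymes were higher. SLC2A1, the transporter of most dividing cells, stood at 81.1, 81.4 and 71.8 CPM in ectoderm controls and at 156, 145 and 127 after knockdown, 1.84-fold higher (adjusted p = 4.52e-08). SLC2A3 rose 1.48-fold, HK2, the inducible hexokinase, 1.65-fold, PFKP 1.6-fold, PKM 1.27-fold and ALDOA 1.49-fold. HK1, the constitutive hexokinase, rose 1.14-fold and PFKFB2, a relative of PFKFB4, 1.3-fold. Leaving out control library 2 ended the calls of HK1, ALDOA and PFKFB2 (adjusted p = 0.111, 0.0647 and 0.0666), and 7 members were then higher and 7 lower. HK1 also lost the call without knockdown library 3 or control library 1, and PFKFB2 without knockdown library 2 or 3 or control library 3. The count of ALDOA is low for this enzyme, and its level is uncertain.

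VEGFA stood at 34.8, 30.9 and 32.2 CPM in ectoderm controls and at 101, 94.3 and 104 after ZIC2 knockdown, 3.06-fold higher (adjusted p = 5.79e-12). ADM had 0, 3 and 0 counts in the controls and 70, 66 and 65 after knockdown. The ratio of its summed counts was 59.9, with a 95% counting interval from 20.2 to 293. PDK1 fell from 83.7, 82.2 and 94 CPM to 35, 37.8 and 36.6 (2.37-fold, adjusted p = 4.03e-10), and PGK1 from 784, 898 and 898 to 398, 452 and 426 (2.02-fold, adjusted p = 6.6e-11). LDHA fell 1.83-fold, BNIP3 1.91-fold, BNIP3L 1.49-fold, EGLN3 1.85-fold and PFKM 1.25-fold. GAPDH (log2 change −0.03 ± 0.05), ENO1 (0.04 ± 0.05) and HIF1A (0.05 ± 0.06) had overlapping groups. Of the 9 upper enzymes, 4 were thus higher, PFKM and TPI1 were lower, and GPI, PFKL and ALDOC had no call.

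The change after ZIC2 knockdown correlated with GC content across all genes (Spearman rho 0.33 across 14960 genes). With GC and length trends removed, 10 members were higher and 11 lower. HK1 (adjusted p = 0.0737) and PDK3 (0.133) had then lost the call, GAPDH (log2 change −0.2, adjusted p = 0.00435) and GPI (−0.18, 0.0169) were called lower, and HIF1A was called higher (0.16, 0.0331). Neural ectoderm markers were lower in 2 of 8 tested (sums of 944 to 1070 CPM in controls and 711 to 779 after knockdown), and primed markers were higher in 7 of 9 tested and lower in the other two. TDGF1, a pluripotency marker, stood at 192 ± 18.2 CPM after knockdown and 6.5 ± 1.12 in controls, while SOX2, LIN28A and PRDM14 were lower, 3 of 8 markers of core pluripotency. Naive markers were higher in 2 of 5 tested (KLF5 and TFCP2L1, sums of 9.3 to 13 CPM in controls and 18.7 to 20.3 after knockdown), with KLF17 at 0 in both groups. Trophoblast and amnion markers were higher in 2 of 3 tested (GATA3 and GABRP, sums of 8.93 to 13.4 and 14.6 to 20.8 CPM), with HAND1, CGA and VGLL1 at 0 in both groups. Fibroblast markers were higher in 3 of 4 tested (sums of 186 to 197 and 291 to 309 CPM), with COL3A1, DCN and LUM at 0 in both groups. The part of these changes in the members' changes was not tested.

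**Figure D3:**
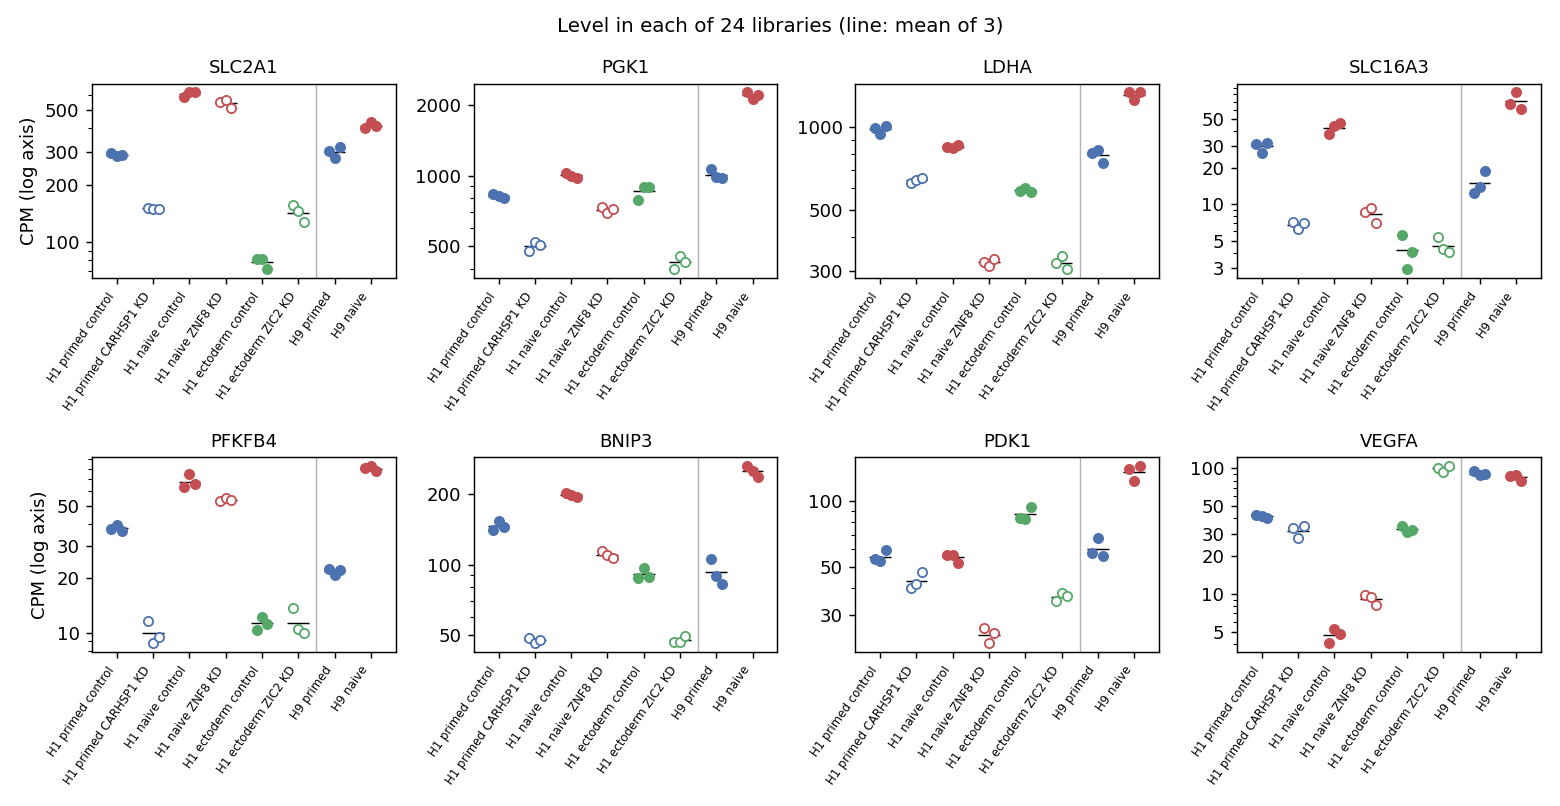
TMM-scaled CPM on a log axis of 8 members (SLC2A1, PGK1, LDHA, SLC16A3, PFKFB4, BNIP3, PDK1 and VEGFA) in every library of the 8 groups; points are libraries and bars are group means, with H1 and H9 scaled separately. PGK1, LDHA, PDK1 and BNIP3 lie below their controls in all 3 knockdowns, while SLC2A1 and VEGFA are above theirs in the ZIC2 knockdown.

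The 3 knockdowns have separate controls, so their calls can be set beside each other. Each gene was knocked down in 1 cell state only, and the fall of the target itself differed. Target, state and strength of knockdown therefore cannot be told apart. Of 38 members tested in all 3, 8 were lower in each: TPI1, PGK1, PGAM1, LDHA, PDK1, PDK3, BNIP3 and BNIP3L. Of the 13698 genes tested in all 3, 84 (0.613%) were lower in each. No member was higher in each, against 105 genes (0.767%). In ectoderm, TPI1, PGAM1 and PDK3 lost the call when single libraries were left out (adjusted p of 0.0566, 0.222 and 0.153 without control library 2), and PGAM1 and PDK3 also with DESeq2 (0.0565 and 0.0592). PGAM1 also lost it with no low-count filter (0.0974), and PDK3 with GC and length trends removed. TPI1 also lost it without knockdown library 1 or control library 3, PGAM1 without knockdown library 2 or 3, and PDK3 without knockdown library 1 or 2 or control library 1. PGK1, LDHA, PDK1, BNIP3 and BNIP3L kept the call in every alternative run. Another 11 members, among them SLC16A3, PFKFB4, ENO1 and KDM3A, were lower in the first 2 knockdowns with no call in ectoderm, as were 0.905% of all genes tested in the 3. SLC2A1, SLC2A3, HK2 and PKM were lower in the first 2 and higher in ectoderm (0.467% of all genes), and PFKP and VEGFA were lower after CARHSP1 knockdown and higher in the other two (0.986%). LDHB, the heart-type lactate dehydrogenase, SLC16A1, HIF1A and MXI1, a MYC antagonist, passed in none. With GC and length trends removed, HIF1A and MXI1 each passed in 1 knockdown, as given above, and SLC16A1 passed in the ZNF8 knockdown (log2 change −0.11, adjusted p = 0.0312), as it also did without knockdown library 3 (−0.18, 0.0101). With the replicate block as well, SLC16A1 passed in all 3, at −0.1 for CARHSP1, −0.12 for ZNF8 and 0.13 for ZIC2 (adjusted p = 0.0338, 0.0251 and 0.0321).

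BNIP3, the mitophagy receptor, shows the common fall in every library. It stood at 140, 154 and 144 CPM in primed controls and at 48.9, 46.5 and 48 after CARHSP1 knockdown. In naive cells it went from 202, 198 and 194 CPM to 114, 110 and 107, and in ectoderm from 88, 96.7 and 88.6 to 46.9, 46.7 and 49.9. The folds lower were 3.04, 1.81 and 1.91, and no group overlapped its control.

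The differences between knockdown effects were tested directly in 1 fit of the 18 H1 libraries. Each such difference also sets 2 cell states against each other, so it cannot be assigned to the knocked-down gene. The CARHSP1 and ZNF8 effects differed in 16 of 40 members (17.3% of all 17390 genes did), the CARHSP1 and ZIC2 effects in 27 of 40 (27.5%), and the ZNF8 and ZIC2 effects in 23 of 40 (17.9%). The fall after CARHSP1 knockdown was the stronger in PFKFB4 (difference of log2 changes −1.57 ± 0.15, adjusted p = 5.79e-10), SLC2A1 (−0.78 ± 0.08) and BNIP3 (−0.76 ± 0.09). The ZNF8 fall was the stronger in LDHA (0.78 ± 0.07, adjusted p = 1.25e-11), PDK1 (0.8 ± 0.12) and ALDOC (0.56 ± 0.13). For SLC16A3 the difference was 0.21 ± 0.22 (adjusted p = 0.553), an error too wide to call the falls alike. Against ZIC2 knockdown, SLC2A1 differed by −1.82 ± 0.09 for CARHSP1 and by −1.04 ± 0.09 for ZNF8, and HK2 by −1.02 ± 0.09 and −1.07 ± 0.1. PGK1 fell more after ZIC2 knockdown than after either other (differences of 0.31 ± 0.07 and 0.53 ± 0.07). HIF1A did not pass in any of the 3 differences (−0.07 to 0.05, SE 0.07 each).

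Sequences just before an annotated start are shown for 4 of these genes. The genes taken were 3 of the 8 that fell in every knockdown, and SLC16A3. SLC16A3 had the largest fall of the tested members in primed and in naive cells. The sequences were read from RefSeq promoter windows on GRCh38.p14, in which 35 of the 41 members were matched. The HIF core was searched as ACGTG or GCGTG on either strand (capitals), and each window was cut where an annotated exon begins. Where a gene had more than 1 window, the one with the most ACGTG matches was taken, so it was chosen for its cores. The other LDHA window held 1 GCGTG and no ACGTG, and some of the other SLC16A3 windows held no core. The PGK1 and SLC16A3 windows lie within the annotated span of their gene, not before its first base. The palindrome CACGTG, an E-box that other factors bind, holds ACGTG on both strands. The strands and positions are plus, chrX:78103998-78104173 for PGK1; plus, chr11:18394313-18394387 for LDHA; minus, chr10:131982014-131982173 for BNIP3; and plus, chr17:82228792-82229031 for SLC16A3, the last being 1 of 5 windows of that gene.
PGK1: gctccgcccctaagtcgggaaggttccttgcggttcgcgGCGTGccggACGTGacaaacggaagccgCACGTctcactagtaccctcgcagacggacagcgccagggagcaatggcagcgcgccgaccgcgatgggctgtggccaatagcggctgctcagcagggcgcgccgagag
LDHA: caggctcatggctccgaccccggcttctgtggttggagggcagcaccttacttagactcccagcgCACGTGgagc
BNIP3: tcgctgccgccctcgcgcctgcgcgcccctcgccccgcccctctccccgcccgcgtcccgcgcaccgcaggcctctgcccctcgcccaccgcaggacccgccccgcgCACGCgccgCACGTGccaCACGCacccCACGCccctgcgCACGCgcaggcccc
SLC16A3: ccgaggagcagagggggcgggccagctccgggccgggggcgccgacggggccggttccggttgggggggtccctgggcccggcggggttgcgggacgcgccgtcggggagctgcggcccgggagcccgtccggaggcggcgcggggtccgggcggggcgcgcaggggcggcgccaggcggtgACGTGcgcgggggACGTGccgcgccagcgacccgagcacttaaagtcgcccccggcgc

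The shown stretch held 3 cores in PGK1, 6 in BNIP3, 2 in LDHA and 2 in SLC16A3. In BNIP3 and in LDHA the count includes 1 palindrome CACGTG, which counts once per strand. Over the full windows of 250 bases before each start, 60.0% of 65 member windows held a core, against 43.2% of all 35116 windows. For ACGTG alone the shares were 38.5% and 18.5%, and for GCGTG alone 33.8% and 32.2%. In 6 of the 35 members, SLC2A1, PGAM1, PKM, LDHB, P4HA2 and EGLN3, no window held either core. The other 29 held a core in at least 1 window, as did 47.4% of all 27305 genes with a window. Some members had several windows, which gives more places for a match. A match describes the sequence and is not a measured binding site.

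Among isoenzymes and paired transporters, shares of length-scaled levels give the balance between forms. A share alone does not tell which form changed. LDHB made up 14% ± 0.457 of both lactate dehydrogenase subunits in primed controls and 21% ± 0.677 after CARHSP1 knockdown. It made up 7.58% ± 0.626 in naive controls and 19.7% ± 0.967 in the ZNF8 knockdown, and 15.2% ± 0.766 and 22.5% ± 1.84 in ectoderm without and with ZIC2 knockdown. In each pair the groups did not overlap, and LDHB's own level passed in none of the 3 knockdown tests. SLC16A3 made up 2.5% ± 0.304 of the 2 lactate transporters in primed controls and 0.589% ± 0.0536 after CARHSP1 knockdown, and 6.32% ± 0.865 and 1.41% ± 0.274 in naive cells without and with ZNF8 knockdown. It stood at 0.314% ± 0.0926 and 0.331% ± 0.0481 in the ectoderm pair, which overlapped.

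SLC2A1 made up 24.6% ± 0.106 of the 2 glucose transporters in primed H1 controls and 65.6% ± 1.51 in naive ones, while H9 gave 25% ± 1.95 primed and 25.4% ± 0.799 naive. After CARHSP1 knockdown the share was 16.2% ± 0.399. PFKL made up 22.9% ± 0.591 of phosphofructokinase in primed and 50.9% ± 1.1 in naive H1 controls, and 21.4% ± 2.17 and 40.6% ± 2.58 in primed and naive H9. In ectoderm PFKM held the largest share, 51.4% ± 2.21 in controls and 37.4% ± 3.07 after ZIC2 knockdown, where PFKP went from 28.8% ± 1 to 41.4% ± 0.166. PFKM overlaps SENP1 on the other strand, and SENP1 had a log2 change of −0.07 in that comparison. Counts of an overlapping gene reached 56.2% of those of PFKM. Against primed cells, SENP1 moved in the same direction as PFKM. Its log2 change was −0.63 in naive H1 (PFKM −0.28), −0.55 in naive H9 (−0.66) and 0.64 in ectoderm (0.42). The part of SENP1 reads in the PFKM values was not tested.

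**Figure D4:**
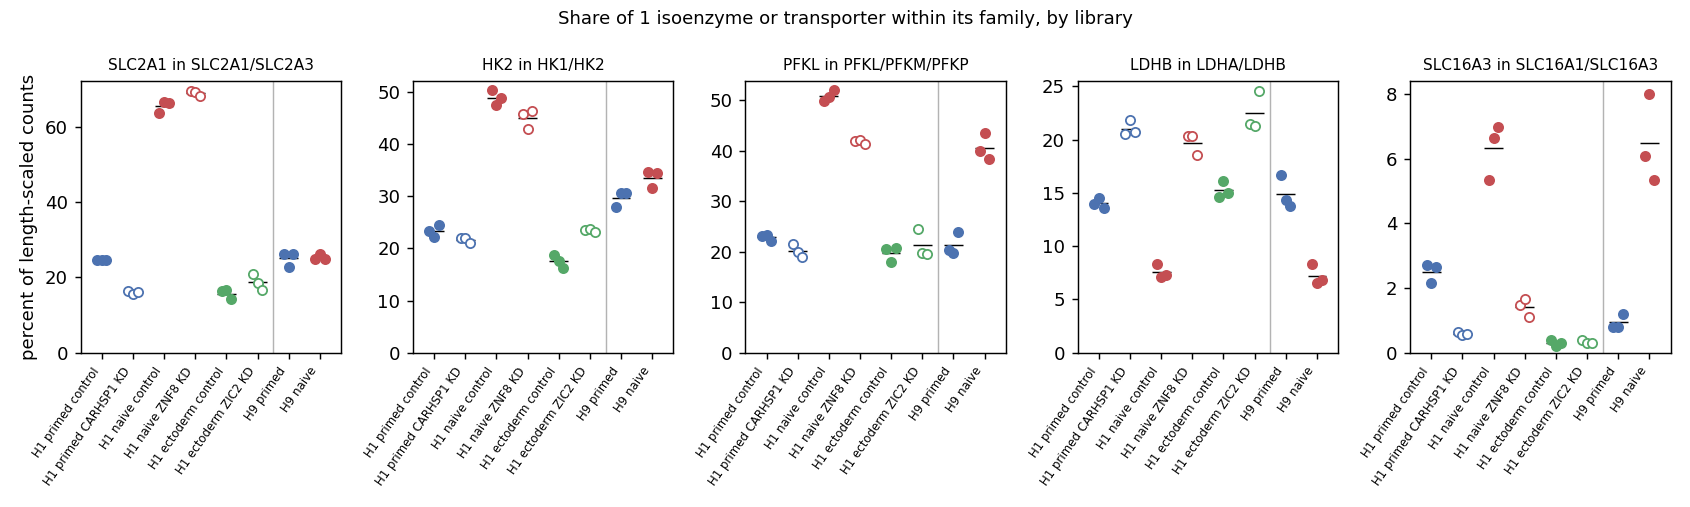
Share in percent of SLC2A1, HK2, PFKL, LDHB and SLC16A3 within its pair or trio of isoenzymes or transporters, from length-scaled levels, in every library of the 8 groups; points are libraries and bars are group means. LDHB is higher in each knockdown than in its control, and SLC2A1 stands at 65.6% in naive H1 controls and 69% in the ZNF8 knockdown, against 25.4% in naive H9.

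Naive and primed controls of H1 differed in 38 of 40 tested members, 15 higher and 23 lower in naive cells, against 35.0% higher and 36.1% lower of all 15874 genes tested. PFKL stood at 460, 513 and 548 CPM in naive and at 108, 103 and 104 in primed controls, 4.83-fold higher. HK1 stood at 112, 110 and 109 CPM in naive and at 484, 492 and 475 in primed cells, 4.4-fold lower. VEGFA was 8.84-fold lower in naive cells, at a mean of 4.69 against 41.4 CPM, and ADM 7.85-fold lower, at 3.54 against 27.5 CPM. The 2 members without a call were PDK1 and PFKFB2. Markers of other cell types also differed. Trophoblast and amnion markers summed to 106 to 113 CPM in naive and 19.9 to 24.9 in primed controls (6 of 8 tested higher and 1 lower), with none of the 10 at 0 in naive cells. Mesoderm markers summed to 131 to 152 and 7.17 to 8.65 CPM (2 of 3 tested higher and 1 lower), most of it MIXL1 at 127 ± 11.1 CPM in naive cells, with HAND2 at 0 in both groups. Their part in the members' differences was not tested. This comparison uses the same control libraries as the CARHSP1 and ZNF8 knockdowns.

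In ectoderm controls against primed controls, 28 of 39 tested members were lower and 7 higher, against 32.1% lower and 30.7% higher of all 15409 genes tested. The median log2 change was −0.6 over members and 0 over all genes. SLC16A3 was 7.41-fold lower, at 5.62, 2.93 and 4.07 CPM. SLC2A1 was 3.74-fold lower, PFKFB4 3.33-fold and PFKFB3, another maker of the phosphofructokinase activator, 2.21-fold. ADM had 3 counts in all over the 3 ectoderm controls and 902 over the primed controls. Higher in ectoderm were BNIP3L (1.87-fold), ENO2, the neuronal enolase (1.58-fold), PDK1 (1.55-fold), HIF1A (1.44-fold), PFKM, TPI1 and SLC16A1. SENP1, which overlaps PFKM, was also higher, by 0.64 on the log2 scale. The change from primed to ectoderm correlated with GC content (rho −0.35 across 15346 genes), and with GC and length trends removed PFKL changed sign to 0.18 (adjusted p = 0.0346), GAPDH was called higher at 0.34 and SLC16A1 stood at 0.

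The same ectoderm controls serve the ZIC2 comparison, so values over the 3 groups are given side by side without a test of their relation. Mean SLC2A1 was 289 CPM in primed controls, 78.1 in ectoderm controls and 143 after ZIC2 knockdown. SLC2A3 gave 813, 385 and 569 CPM, HK2 138, 66.6 and 110, and VEGFA 41.4, 32.7 and 99.6. PDK1 gave 55.5, 86.6 and 36.5 CPM, and PGK1 818, 860 and 425.

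In H9, 23 of 41 members were higher and 6 lower in naive than in primed cells, against 25.4% higher and 26.1% lower of all 15761 genes tested. SLC16A3 stood at 12.5, 13.8 and 18.9 CPM in primed and at 66.9, 83.1 and 61.2 in naive H9, 4.67-fold higher (adjusted p = 3.75e-10). PFKFB4 was 3.66-fold, P4HA1 3.05-fold, BNIP3 2.68-fold and PDK1 2.25-fold higher in naive H9. PGK1 stood at 1070, 989 and 973 CPM in primed and at 2270, 2120 and 2220 in naive H9, 2.18-fold higher. HIF1A was 1.34-fold lower, at 189, 182 and 211 against 257, 270 and 250 CPM.

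The naive-minus-primed difference was set against H1 in 1 fit of 12 libraries joined by gene identifier. It differed between the lines in 35 of 41 members, 29 toward higher in naive H9, where 26.2% of all 17140 genes went that way and 49.9% differed at all. The median difference, H9 minus H1, was 0.87 over members and 0.04 over all genes on the log2 scale. The 2 lines were counted in separate tables and differ in doxycycline treatment and nontargeting construct as the labels give them, so line, treatment and handling cannot be told apart. KLF17 was near 0 in naive H9 and the naive marker sum was 321 to 342 CPM there against 851 to 879 in naive H1. Primed markers summed to 1870 to 2010 CPM in naive H9 and 1100 to 1130 in naive H1. In primed cells that sum was 4640 to 4790 CPM for H9 and 3530 to 3610 for H1. Trophoblast and amnion markers summed to 9.96 to 15.2 CPM in naive H9, with CGA, VTCN1 and VGLL1 at 0, and to 54 to 63.5 in primed H9. Mesoderm markers summed to 11.6 to 16 CPM in naive and 5.75 to 8.89 in primed H9, with MIXL1 at 3.12 ± 0.603 CPM in naive cells. The trophoblast and mesoderm sums were thus far lower in naive H9 than in naive H1. The part of all these markers in the difference was not tested.

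Of 40 members tested in both lines, 12 were higher in naive cells of both, against 15.5% of the 14730 genes tested in both, among them SLC2A1, PFKL, TPI1, PGK1, SLC16A3, PFKFB4 and BNIP3, and 5 were lower in both (PFKM, LDHB, SLC16A1, EGLN3 and ADM), against 17.0%. SENP1, which overlaps PFKM, was also lower in naive cells of both lines. ALDOA, one of the 12, lost the call in H9 with DESeq2 (adjusted p = 0.0678) and in H1 with all H1 groups fitted together (0.0708). KDM3A lost it in H1 without primed control library 1 (0.0552). A further 10 were lower in naive H1 and higher in naive H9, against 4.64% of all genes. Of these, ENO1, P4HA2 and EGLN1 in H1 and PDK3 in H9 lost the call when single libraries were left out. ENO1 in H1 also lost it with no low-count filter (0.0839), all H1 groups together (0.0663) or trends removed (0.102). Of the 10, LDHA stood at 847, 844 and 860 CPM in naive and at 993, 948 and 1010 in primed H1, but at 1340, 1260 and 1340 in naive and at 806, 831 and 744 in primed H9. The difference of log2 changes was 0.93 ± 0.08 (adjusted p = 5.87e-11). SLC2A3 went from 813 to 292 CPM in H1 and from 824 to 1110 in H9 between primed and naive, a difference of 1.9 ± 0.08 (adjusted p = 3.7e-18). HIF1A alone was called the opposite way, higher in naive H1 and lower in naive H9 (3.99% of all genes), with a difference of −0.74 ± 0.09.

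**Figure D5:**
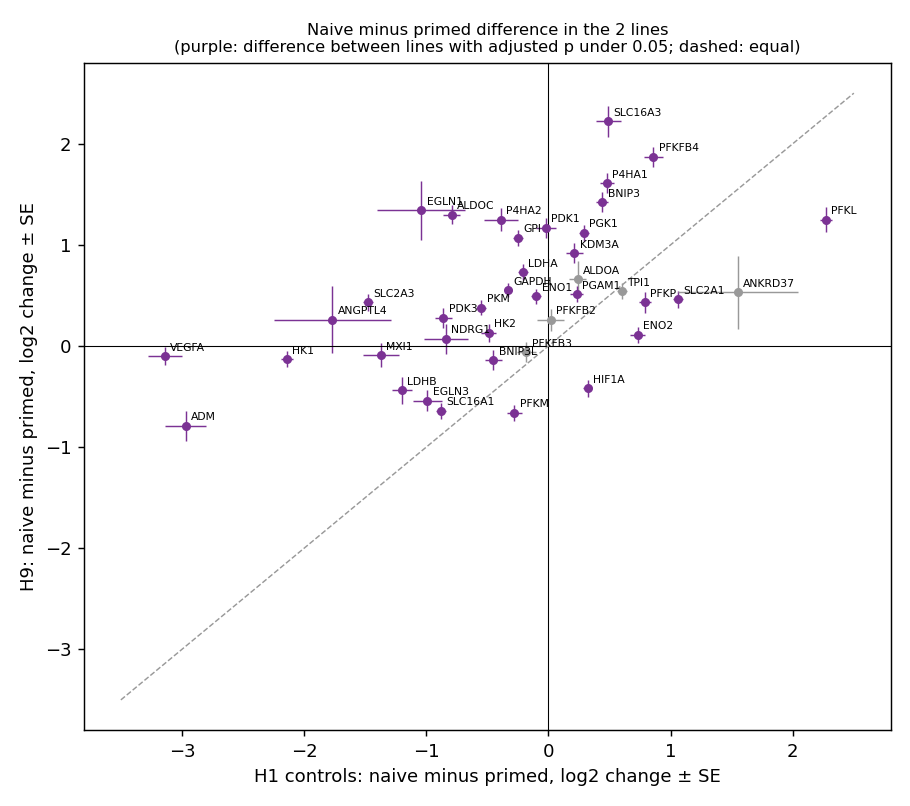
Naive minus primed log2 change of 40 members in H1 (horizontal axis) and in H9 (vertical axis), as edgeR estimates with standard errors; the diagonal marks equal changes and CA9, untested in H1, is left out. Most points lie above the diagonal, with VEGFA, HK1 and SLC2A3 among those far above it and HIF1A below it.

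Other genes of the pathways were counted in the same fits from separate lists. Over all genes, 9.87% were lower and 10.3% higher after CARHSP1 knockdown, 12.3% and 11.9% in the ZNF8 knockdown, and 12.8% and 15.3% after ZIC2 knockdown. Of 41 other genes of glycolysis and pyruvate handling, 8 of 34 tested were lower (23.5%) and 2 higher (5.88%) after CARHSP1 knockdown. In the ZNF8 knockdown 4 of 32 were lower and 4 higher (12.5% each), near the shares of all genes. After ZIC2 knockdown 4 of 33 were lower (12.1%) and 8 higher (24.2%). PGM1, which links glycogen to glycolysis, was at 99.1 ± 1.4 CPM after CARHSP1 knockdown and 182 ± 3.02 in controls (adjusted p = 6.03e-16). TXNIP, a brake on glucose uptake, was at 1.11 ± 0.542 CPM in the ZNF8 knockdown and 13.5 ± 0.551 in naive controls (adjusted p = 2.3e-14). TKT, the transketolase of the pentose phosphate pathway, was lower by 0.24 on the log2 scale after CARHSP1 knockdown and higher by 0.39 and 0.5 in the ZNF8 and ZIC2 knockdowns.

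Of 38 other HIF targets, 13 of 37 tested were lower (35.1%) and 3 higher (8.11%) after CARHSP1 knockdown. In the ZNF8 knockdown 15 of 33 were lower (45.5%) and 4 higher (12.1%), and after ZIC2 knockdown 7 of 35 were lower (20%) and 8 higher (22.9%). FAM162A, a mitochondrial HIF target, stood at 36.6 ± 0.875 CPM after CARHSP1 knockdown and 62.2 ± 1.88 in controls. EDN1, which encodes the vessel-constricting endothelin, stood at 30.8 ± 2.31 CPM after ZIC2 knockdown and 2.27 ± 0.78 in controls (adjusted p = 4.65e-12), and STC2, a secreted glycoprotein, at 237 ± 4 and 81.7 ± 7.82 CPM. STC2 was also higher in the ZNF8 knockdown, at 32.5 ± 1.41 against 15.1 ± 3.26 CPM. Of 14 further genes of the HIF machinery, 5 were lower (35.7%) and 1 higher (7.14%) after CARHSP1 knockdown, 1 lower (7.14%) in the ZNF8 knockdown and 3 higher (21.4%) after ZIC2 knockdown. EPAS1, another oxygen-labile HIF subunit, was the 1 lower in the ZNF8 knockdown, at 1.68 ± 0.869 CPM against 18 ± 2.26 in naive controls (log2 change −3.33 ± 0.22, adjusted p = 4.82e-15). It was also lower after CARHSP1 knockdown, at 6.62 ± 0.648 against 12.8 ± 1.07 CPM (−0.95 ± 0.17, adjusted p = 5.29e-05), and higher after ZIC2 knockdown, at 2.01 ± 0.792 against 0.506 ± 0.0777 CPM (1.95 ± 0.53, adjusted p = 0.00881).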

How the data were processed

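The authors deposited raw read counts for each gene in 2 tables, which hold the H1 and the H9 libraries. Reads were aligned with HISAT2 to GRCh38, per the submitters' processing notes, from stranded polyadenylated RNA libraries, per the labels' protocols. The tool and annotation used for counting, and whether it used strand, are not given here in any label or header. The H1 table holds 27 further columns that match no sample and were not used. Each pair of groups was fitted alone with edgeR 4.0.16 (R 4.3.3), with filterByExpr, TMM scaling, the quasi-likelihood test and Benjamini-Hochberg adjustment over all genes tested, and called at 0.05. Differences of effects were interaction terms. Levels are TMM-scaled CPM within each table, and per-kilobase levels use the deposited gene length. Alternatives were DESeq2 1.42.0, its size factors, no filter, a replicate block, all H1 groups together, GC and length trends removed, and each library left out. Scripts were tested on simulated data. The members and all gene lists were chosen with earlier results of these data known. The text names all members, the targets, markers, and up to 3 genes of each other pathway list with the smallest adjusted p in a knockdown. Positions are from GENCODE 29. Same-numbered libraries were not paired by any label.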

Additional observations from a re-analysis of the deposited data

Results flagged for a closer look

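The naive-to-primed difference was tested between the H9 and H1 lines in one fit, and it differed in 35 of the 41 genes, where 49.9% of all genes tested differed. Of these, 11 were called in opposite directions in the 2 lines, against 8.64% of the genes tested in both, and their differences are given as H9 minus H1 on the log2 scale. The calls of ENO1, P4HA2 and EGLN1 in H1 and of PDK3 in H9 were lost in some alternative runs, as given above. SLC2A3 differed by 1.9, GPI by 1.31, ALDOC by 2.08, GAPDH by 0.87, ENO1 by 0.58 and PKM by 0.91. LDHA differed by 0.93, PDK3 by 1.13, EGLN1 by 2.36 and P4HA2 by 1.62, while HIF1A differed by −0.74. Without an opposite call in the 2 lines, HK1 differed by 2, VEGFA by 3.03, ADM by 2.17 and ANGPTL4 by 2.03. VEGFA stood at 90.9 ± 4.07 CPM in primed and 84.7 ± 5.13 in naive H9 (SD, n = 3), and at 41.4 ± 1.14 and 4.69 ± 0.58 CPM in H1. Line, doxycycline treatment and table cannot be told apart, and EGLN1 and ANGPTL4 rest on at most 67 counts in each library.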

How the results depend on the processing

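Counts of members called in each direction stayed within 1.5 times their value in every alternative but one: the single member higher after CARHSP1 knockdown, ADM, was not called when all H1 groups were fitted together, which gave 0. When 1 library was left out, all genes called after CARHSP1 knockdown ranged from 2045 to 3410 (3152 with all libraries). Without 1 library, members called higher and lower after ZIC2 knockdown ranged from 7 to 10 and from 7 to 9 (10 each with all). Removing GC and length trends turned the sign of 4 ectoderm-against-primed values: PFKL to 0.18, GAPDH to 0.34, PGK1 to −0.12 and SLC16A1 to 0 (from −0.6, −0.05, 0.06 and 0.18), and with the replicate block as well PFKL was 0.18, GAPDH 0.34 and SLC16A1 −0.01. The cause was not tested. Same-numbered libraries of the 2 groups correlated by −0.12 to 0.15 in their deviations, and differently numbered ones by −0.1 to 0.2. With 3 libraries in each group, such values cannot tell whether libraries were handled together. With the replicate block alone, 30 members were lower after CARHSP1 knockdown, 24 in the ZNF8 knockdown, and 11 were higher and 10 lower after ZIC2 knockdown. It gave 23 higher members in H9, 15 in naive H1 and 7 in ectoderm, and 16, 26, 23 and 34 members for the 4 differences of effects. CA9, ANKRD37, ANGPTL4 and EGLN1 had few counts, which limited what could be called for them. The reason for these few counts was not tested.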
